A study of Saccharomyces cerevisiae with 8 samples.

Results

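The comparison described here set RAD27 knockout cells of the budding yeast Saccharomyces cerevisiae against wild type cells, both kept at 30 °C, gene by gene. It rested on 4 of the series' 8 RNA libraries, which were 2 of the knockout and 2 of wild type. Of 6692 genes in the count table, 5667 had enough counts to be tested, and 224 had none in any library. Both genotypes were grown overnight at 30 °C in YPD, a rich glucose medium, then diluted into fresh YPD and harvested after 4 h at 30 °C. The other 4 libraries came from the same genotypes kept for 4 h at 37 °C, and they entered where they are named, in the shared estimate of spread and in the filter that chose the tested genes. The labels give the genotypes as RAD27 knockout and wildtype and name neither the strain background, the marker used for the deletion nor the number of clones. Whether the replicates were separate cultures is not stated either, so each p measures only the spread between these samples.

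RAD27 encodes the yeast flap endonuclease, the counterpart of mammalian FEN1. On the lagging strand, DNA polymerase delta (catalytic subunit Pol3) displaces the start of the preceding Okazaki fragment as a 5′ flap, the flap endonuclease cuts it off, and DNA ligase (Cdc9) seals the nick. The clamp protein PCNA (Pol30) holds these enzymes on the DNA, and Dna2 and Exo1 can also process flaps. When replication is disturbed, the kinases Mec1, Rad53 and Dun1 signal to raise deoxynucleotide supply, chiefly through ribonucleotide reductase, and to induce repair genes. The study's question was how transcription changes when Okazaki fragments are matured poorly, and the comparison at 30 °C gives the changes present without heat.

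Library totals were 5588983 and 5442209 counts in the knockout and 4734266 and 5250127 in wild type. A gene with 3 counts in a library therefore stood at 0.537 to 0.634 CPM (a gene's counts relative to the library total) before scaling, and levels near that were not resolved. Replicates differed by more than counting error, with a chi-square per degree of freedom of 3.95 between the knockout replicates and 2.5 between the wild type replicates, where counting error alone gives 1. Over these 4 libraries, principal component 1 carried 77.1% of the variance and placed the knockout at 16 and 15.9 and wild type at -16.4 and -15.6. Component 2, with 11.6%, placed the knockout replicates at -8.55 and 8.53 and the wild type replicates at -1.98 and 2, so the knockout replicates lay farther apart. Levels below are CPM after TMM scaling, changes are log2 fold changes of knockout over wild type ± SE, and a gene is called higher or lower at an adjusted p under 0.05 in edgeR's quasi-likelihood test over all 5667 genes.

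Knockout and wild type differed by many small changes and few large ones. Differences between the strains other than RAD27 were not tested. In the knockout 849 genes were higher, 15% of those tested, and 862 were lower, 15.2%, so that 30.2% passed in all. Counts of list members given below stand against these shares. The median size of a called change was 0.42 on the log2 scale, and 609 of the higher and 661 of the lower genes changed by less than 1.5-fold. At least 2-fold changes, 2.89% of genes, were found in 93 higher genes (1.64%) and 71 lower genes (1.25%), and of those 15 and 5 reached 4-fold. With genes split into 4 groups of nearly equal size by mean level, 19.2% were called in the lowest group and 41.3% in the highest, whereas 104 of the 2-fold changes lay in the lowest. An unadjusted p under 0.05 was reached by 2372 genes (41.9%). Both knockout libraries lay above both wild type libraries in 34.1% of tested genes and below both in 33.8%. Without wild type replicate 1 the counts were 512 higher and 494 lower, without wild type replicate 2 they were 504 and 541, and without knockout replicate 2 the lower genes numbered 538.

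**Figure D1:**
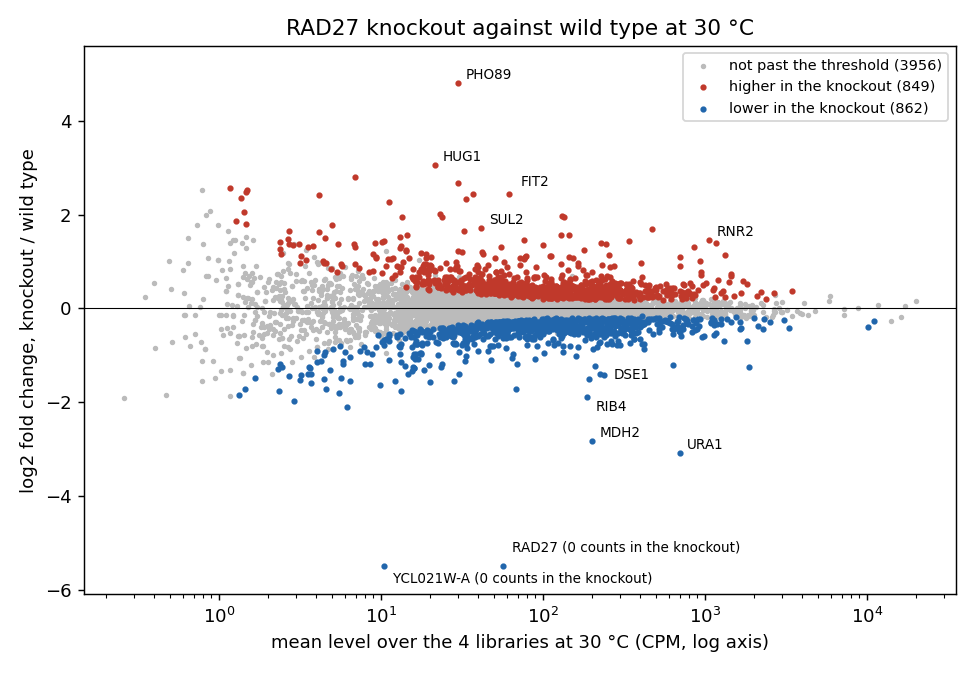
Log2 fold change of knockout over wild type at 30 °C for each tested gene (vertical axis) against its mean level over the 4 libraries (CPM, horizontal log axis), with the 849 higher genes in red and the 862 lower genes in blue. PHO89 stood highest at 4.81, while RAD27 and YCL021W-A, with 0 counts in both knockout libraries, are drawn at the lower edge because their fold change has no fixed value.

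RAD27 lies on the minus strand of chromosome XI at 224727 to 225875 in the R64 assembly. It had 0 counts in each knockout library, against 119 and 110 CPM in wild type. With 3 counts over both knockout libraries as the floor, a limit for counting error only, it was at least 395-fold lower. Next to it on the same strand lies APN1 (223352 to 224455), for the main apurinic endonuclease of base excision repair. APN1 stood at 38.4 and 45.7 CPM in the knockout, against 93.7 and 98.7 CPM in wild type (-1.19 ± 0.10, adjusted p = 5.92e-06). The 2 knockout libraries lay well below both wild type libraries. ABF1, for a general regulatory factor on the other side of RAD27, was lower by less (145 and 135 CPM in the knockout, 180 and 189 CPM in wild type, -0.40 ± 0.09, adjusted p = 0.00677), and that call was lost without wild type replicate 2 or knockout replicate 2. PRR1 and KTI12, one gene farther out on either side, did not pass, with changes of 0.08 and 0.02.

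The reading frame YCL021W-A (chromosome III, 83620 to 83997, plus strand) also had 0 counts in both knockout libraries, against 25 and 17.1 CPM in wild type. It was at least 72.5-fold lower. Genes commonly used as selection markers were read next, since the labels do not name the strain's markers. HIS3 had 0 counts in all 4 libraries. ADE2 had 1 and 3 counts in the knockout, against 2 and 0 in wild type, and TRP1 had 3 and 7, against 9 and 6. LYS2 was expressed in both genotypes and did not pass (-0.15), although it passed as lower without knockout replicate 1. LEU2, of leucine synthesis, stood at 569 and 430 CPM in the knockout, against 187 and 181 CPM in wild type (1.44 ± 0.11, adjusted p = 2.24e-06). URA3, of pyrimidine synthesis, stood at 209 and 187 CPM in the knockout, against 86.1 and 98.4 CPM in wild type (1.10 ± 0.09, adjusted p = 2.31e-06). A chromosomal copy and a marker copy of a gene cannot be told apart in these counts. Markers of the same mating type were expressed in both genotypes. The a-cell genes STE2 (551 and 533 CPM in the knockout, 646 and 710 CPM in wild type), BAR1, STE6, MFA1 and MFA2 were expressed in all 4 libraries. The alpha-factor genes MF(ALPHA)1 and MF(ALPHA)2 had 8 counts or fewer in each. SAG1, also on the alpha list, was expressed, at 32.9 and 31.1 CPM in the knockout and 35.0 and 43.5 CPM in wild type. Summed, the alpha list stood at 40.2 and 34.9 CPM in the knockout and 38.6 and 46.2 CPM in wild type. The a-cell list summed to 1577 and 1473 CPM in the knockout and 1731 and 1892 CPM in wild type. The a-cell list had 0 of 7 higher and 2 lower (STE2 at -0.32 and STE6 at -0.34), and the alpha list had 0 of 2 tested called. The 2 lower calls were each lost without wild type replicate 2 or knockout replicate 2.

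**Figure D2:**
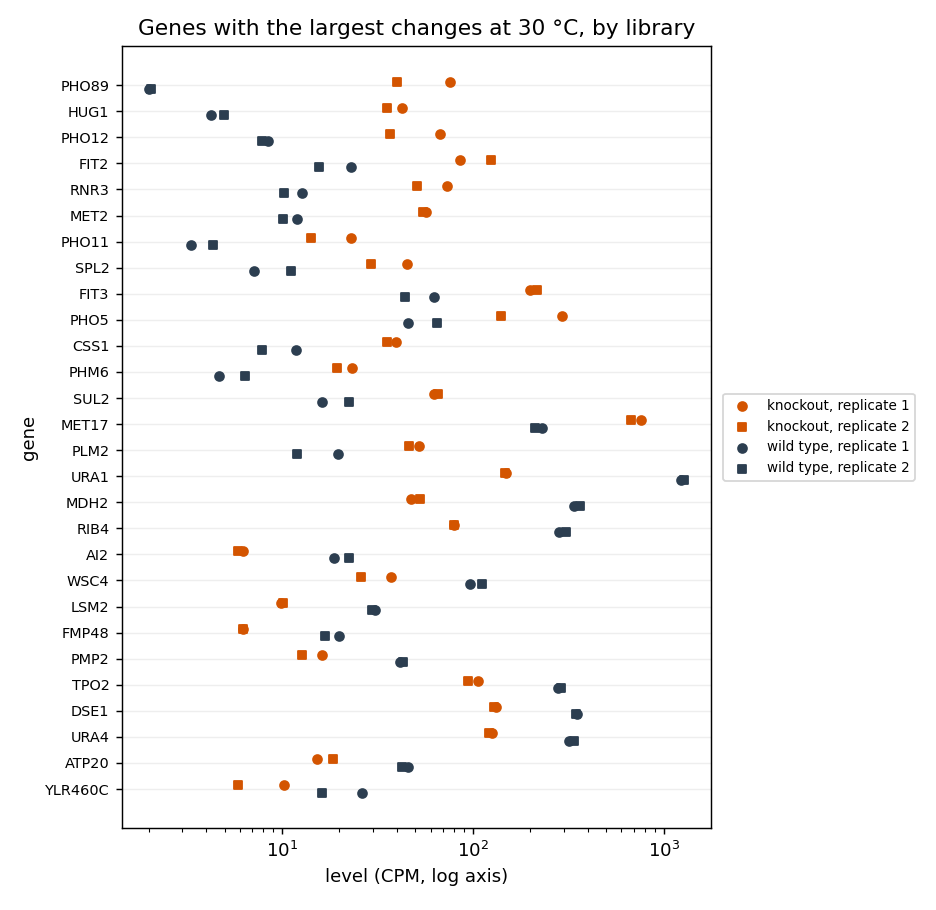
Level (CPM, horizontal log axis) in each library at 30 °C of the called genes with the largest rises (upper rows) and falls (lower rows) where the mean was 10 CPM or more and whose 2 knockout libraries (orange) did not overlap the 2 wild type libraries (dark blue), leaving out the 2 genes with 0 counts. Circles are replicate 1 and squares replicate 2, and the knockout replicates lay apart for phosphate genes such as PHO5, at 292 and 141 CPM.

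The genes of ribonucleotide reductase and its control rose as a whole. Of 11 genes, 11 were higher and 0 lower, with a median of 0.60, against a median of -0.00 over all tested genes and the background of 15% higher given above. RNR1 and its alternative RNR3 encode the large subunit, and RNR2 and RNR4 the small subunits. RNR1 stood at 1241 and 1147 CPM in the knockout, against 731 and 662 CPM in wild type (0.78 ± 0.13, adjusted p = 0.0008). RNR2 stood at 1668 and 1448 CPM in the knockout, against 529 and 598 CPM in wild type (1.47 ± 0.09, adjusted p = 2.79e-07). RNR4 reached 1795 and 1602 CPM in the knockout, against 602 and 696 CPM in wild type (1.39 ± 0.09, adjusted p = 5.99e-07). In each of these the lowest knockout library lay above the highest wild type library, as in 34.1% of all tested genes. Knockout replicate 1 was the higher of the pair in each. RNR3, which wild type cells transcribe at a low level without damage, stood at 73.3 and 51.2 CPM in the knockout, against 12.7 and 10.3 CPM in wild type (2.44 ± 0.19, adjusted p = 2.31e-06).

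Small regulators of the enzyme rose beside its subunits. HUG1, for a damage-induced inhibitor of the reductase, stood at 42.3 and 35.5 CPM in the knockout, against 4.24 and 4.95 CPM in wild type (3.07 ± 0.20, adjusted p = 4.62e-07). SML1, for an inhibitor that the Dun1 kinase removes, stood at 288 and 274 CPM in the knockout, against 215 and 203 CPM in wild type (0.43 ± 0.07, adjusted p = 0.000606). DIF1 and WTM1, for proteins that bring the small subunits into the nucleus or hold them there, were at 0.43 ± 0.13 and 0.38 ± 0.07. DUN1, for the kinase itself, was at 0.60 ± 0.11 (adjusted p = 0.00115) and RFX1, for the repressor of RNR2, RNR3, RNR4 and HUG1, at 0.50 ± 0.13 (adjusted p = 0.0134). Some of these calls rested on single libraries. Without wild type replicate 1 or without knockout replicate 1, 8 of the 11 remained higher, and RFX1 and DIF1 were among those lost. RFX1 also lost its call without wild type replicate 2, and DIF1 without knockout replicate 2.

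Upstream sequences of RNR3 and RNR2 are printed for comparison with these changes, because they hold the 9-letter string CCATGGCAA, part of the Rfx1 binding sequence. It was searched on both strands in the 500 bases before each start codon, where 2 of the 11 genes (18.2%) and 0.38% of 5528 windows of all genes held it. The other members have no such run of letters in that window, which says nothing of Rfx1 itself. Sequences are from the RefSeq R64 genome, 5′ to 3′ on the strand of the gene, with the string or its reverse complement in capitals.
RNR3 (chrIX:240945-241004, minus strand): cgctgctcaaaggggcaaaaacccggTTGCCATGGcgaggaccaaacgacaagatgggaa
RNR2 (chrX:391941-392000, plus strand): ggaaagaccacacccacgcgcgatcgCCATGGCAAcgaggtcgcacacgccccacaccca

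Genes known to be induced by DNA damage, a list that shares RNR2, RNR3, RNR4, HUG1, DUN1 and RFX1 with the one above, had 12 of 16 tested members higher and 2 lower, with a median of 0.55. PLM2, a forkhead-associated domain gene, stood at 52.2 and 46.1 CPM in the knockout, against 19.6 and 12 CPM in wild type (1.65 ± 0.17, adjusted p = 2.63e-05). DIN7, for a mitochondrial nuclease, was at 0.53 ± 0.15, and MAG1, for a DNA glycosylase, at 0.58 ± 0.15, and both calls were lost without wild type replicate 1, DIN7 also without knockout replicate 1 and MAG1 also without knockout replicate 2. RAD54, described next, is among the 12. The direction was not shared by all. DDR48 stood at 11.5 and 12.5 CPM in the knockout, against 26.8 and 20.4 CPM in wild type (-0.97 ± 0.18, adjusted p = 0.00145). PHR1, for photolyase, which repairs ultraviolet damage, was also lower (-0.79 ± 0.18, adjusted p = 0.00555), a call lost without knockout replicate 1.

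Among 20 genes of homologous recombination, 6 were higher and 0 lower, with a median of 0.14. The share higher was 30%, against 15% over all genes. RAD59 and RAD52, for proteins that anneal single DNA strands, were at 0.90 ± 0.19 and 0.66 ± 0.08. TOP3, for the topoisomerase that works with the helicase Sgs1, was at 0.83 ± 0.16, while SGS1 itself did not pass (0.13). RAD54 and RDH54, for related DNA translocases, were at 0.48 ± 0.09 and 0.37 ± 0.07. These 6 calls were kept in count whichever library was left out.

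The machinery that matures Okazaki fragments changed little by comparison. Of 18 genes, 3 were higher and 1 lower, with a median of 0.07, shares of 16.7% and 5.56% against the background of 15% and 15.2%. CDC9, for the ligase, stood at 166 and 167 CPM in the knockout, against 125 and 120 CPM in wild type (0.44 ± 0.07, adjusted p = 0.000552). RFC3, a clamp loader subunit gene, was at 0.42 ± 0.08 (adjusted p = 0.00158). RNH1, for one of the RNases H that degrade RNA paired with DNA, was lower (-0.58 ± 0.11, adjusted p = 0.0021), and RNH203, for a subunit of the other, was higher (0.39 ± 0.12), a call lost when any 1 library was left out. POL3, POL30, DNA2 and EXO1 did not pass, at 0.04, -0.08, 0.03 and 0.11.

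Of 18 checkpoint genes 3 were higher and 2 lower, with a median of 0.01, shares of 16.7% and 11.1% that lie near or below those over all genes. RAD53, for the effector kinase, stood at 54.6 and 59.0 CPM in the knockout, against 39.9 and 38.4 CPM in wild type (0.54 ± 0.10, adjusted p = 0.00127). MRC1, for its replication-fork adaptor, was at 0.33 ± 0.09 and lost its call without wild type replicate 2 or knockout replicate 2. TEL1, for the kinase that senses DNA ends, was lower (-0.56 ± 0.08, adjusted p = 0.000387). MEC1, RAD9 and CHK1 did not pass, at -0.25, -0.16 and 0.06, although MEC1 passed as lower without knockout replicate 1. The lower count was 1 without knockout replicate 2 or either wild type library.

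Base excision repair had 4 of 7 genes higher and 1 lower, namely APN1, beside RAD27. OGG1, for the 8-oxoguanine glycosylase, stood at 70.2 and 70.2 CPM in the knockout, against 52.9 and 46.4 CPM in wild type (0.50 ± 0.11, adjusted p = 0.00494), a call lost without wild type replicate 2. The higher count was 1 without wild type replicate 1 or without knockout replicate 2 and 2 with either of the others left out. In post-replication repair 2 of 9 were higher and 2 lower, and the higher count was 0 without replicate 1 of either genotype. With all libraries the shares of that list were 22.2% each way, against 15% and 15.2% over all genes. REV7 and REV3, for the subunits of translesion polymerase zeta, were at -0.95 ± 0.22 and -0.45 ± 0.12, while UBC13, for the ubiquitin-conjugating enzyme of the error-free branch, was at 0.54 ± 0.12. REV7 lost its call without knockout replicate 1, REV3 without wild type replicate 1 or knockout replicate 2, and UBC13 without replicate 1 of either genotype. Mismatch repair had 1 of 7 higher (MSH6, 0.27) and 1 lower (MSH3, -0.26), and each lost its call when any of 3 of the 4 libraries was left out. For MSH6 the exception was wild type replicate 1 and for MSH3 it was knockout replicate 1. Of 14 cohesin genes 3 were higher and 3 lower, with 5 higher without wild type replicate 1, 1 lower with either wild type library left out and 0 lower without knockout replicate 1. With all libraries the cohesin shares were 21.4% each way. ECO1, for the acetyltransferase that establishes cohesion at the fork, stood at 19.1 and 21.3 CPM in the knockout, against 10.9 and 6.19 CPM in wild type (1.25 ± 0.22, adjusted p = 0.00109).

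**Figure D3:**
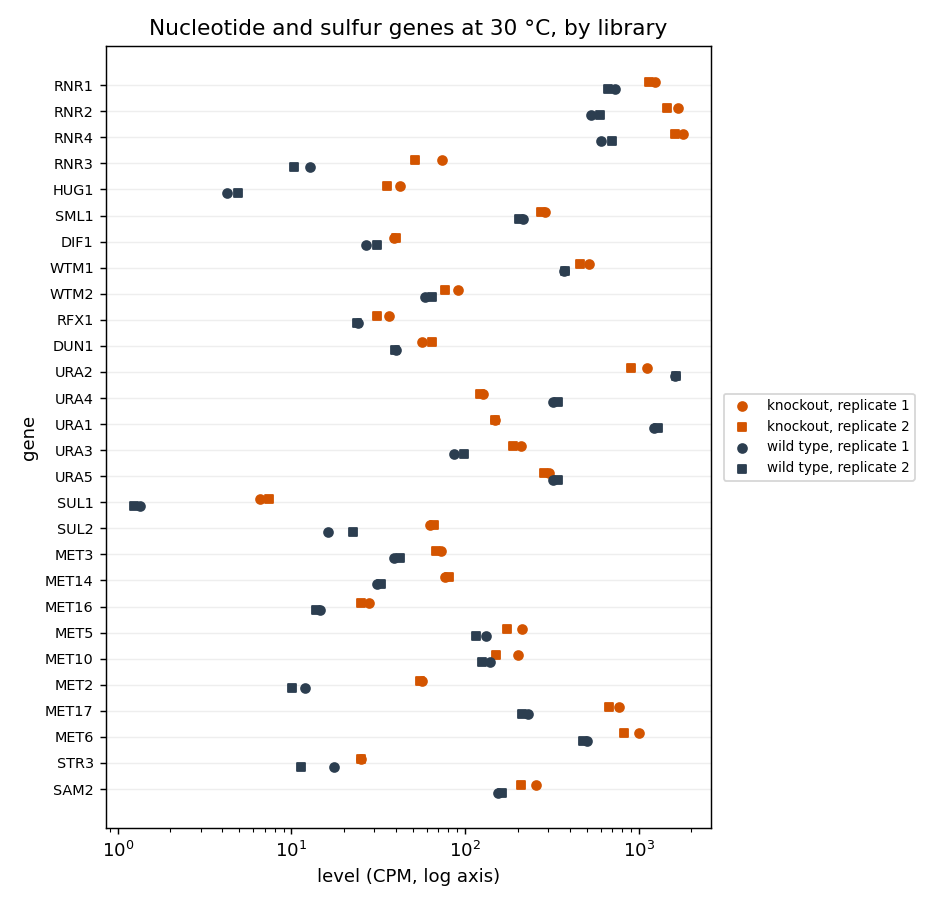
Level (CPM, horizontal log axis) in each library at 30 °C of nucleotide and sulfur genes. Rows hold ribonucleotide reductase and its control (RNR1 to DUN1), pyrimidine synthesis (URA2, URA4, URA1, URA3 and URA5), and sulfate assimilation and methionine synthesis (SUL1 to SAM2). Knockout libraries are in orange and wild type libraries in dark blue, with circles for replicate 1 and squares for replicate 2. The orange points lie right of the dark blue ones for the reductase and sulfur genes, whereas URA1, at 149 and 148 CPM in the knockout and 1225 and 1277 CPM in wild type, lies far to the left.

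Genes that mark stages of the cell cycle moved in different directions. More cells at a stage and more RNA per cell at that stage cannot be told apart in such bulk samples. Histone genes, transcribed in S phase, had 0 of 9 higher and 7 lower, with a median of -0.43. HTA2, for histone H2A, stood at 174 and 226 CPM in the knockout, against 339 and 312 CPM in wild type (-0.70 ± 0.11, adjusted p = 0.000552). HTB1, for histone H2B, stood at 518 and 625 CPM in the knockout, against 886 and 826 CPM in wild type (-0.58 ± 0.09, adjusted p = 0.000339). In all 9 histone genes knockout replicate 1 lay below knockout replicate 2, with a median difference of -0.23 on a scale of log2(CPM + 1), and in all 9 wild type replicate 1 lay above replicate 2, by 0.10. HHF1 and HHF2, near-identical histone H4 genes whose reads can be split between them, were at -0.24 and -0.29, and only HHF2 passed, a call that 3 of the 4 single-library removals ended. HHF1 passed as lower without knockout replicate 2 and with the 4 libraries fitted alone. The linker histone HHO1 was at 0.16 and did not pass.

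Targets of the G1/S factors MBF and SBF, which start S phase genes, had 8 of 24 higher and 1 lower, with a median of 0.23. RFA2 and RFA1, for subunits of the single-strand binding protein RPA, were at 0.62 ± 0.09 and 0.47 ± 0.08. CLB5, for an S phase cyclin, was at 0.52 ± 0.12, and CLN2, for a G1 cyclin, was lower at -0.31 ± 0.08. CLB5 lost its call without knockout replicate 2, and CLN2 without replicate 1 of either genotype. The higher count was 3 without knockout replicate 2, 4 without wild type replicate 2 and 5 without knockout replicate 1, and it was 11 without wild type replicate 1, where the lower count was 0. Of the 24 genes, 22 were higher in wild type replicate 1 than in wild type replicate 2. NRM1, for the MBF co-repressor, did not pass (0.13). In the G2/M cluster 3 of 15 were higher and 1 lower, shares of 20% and 6.67% against 15% and 15.2% over all genes. CLB1, for a mitotic cyclin, stood at 98.2 and 85.6 CPM in the knockout, against 170 and 181 CPM in wild type (-0.93 ± 0.09, adjusted p = 7.87e-06). KIN3, for a mitotic kinase, was higher (0.78 ± 0.14, adjusted p = 0.00109).

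Genes that separate daughter from mother cells after division had 0 of 14 higher and 8 lower, with a median of -0.42. CTS1, for the chitinase that cuts the septum, stood at 1130 and 1089 CPM in the knockout, against 2618 and 2628 CPM in wild type (-1.24 ± 0.07, adjusted p = 9.29e-08). DSE2, for a daughter-specific wall protein, stood at 364 and 408 CPM in the knockout, against 906 and 879 CPM in wild type (-1.21 ± 0.07, adjusted p = 2.37e-07). DSE1, for another daughter-specific protein, stood at 132 and 129 CPM in the knockout, against 350 and 348 CPM in wild type (-1.42 ± 0.07, adjusted p = 2.44e-08). For these 3 genes the replicates of a genotype lay close together and far from the other genotype. AMN1, for an inhibitor of mitotic exit in daughters, was at -0.87 ± 0.08, EGT2 at -0.59 ± 0.09, and the glucanase gene SCW11 at -0.54 ± 0.09. DSE3 and DSE4 did not pass, at -0.18 and -0.21, although DSE4 passed with the 4 libraries fitted alone.

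Sulfate assimilation and methionine synthesis rose along most of the pathway. Yeast takes up sulfate through Sul1 and Sul2, activates and reduces it to sulfide through Met3, Met14, Met16, Met5 and Met10, joins the sulfide to O-acetylhomoserine (made by Met2) through Met17, and methylates the product through Met6. Of 28 genes of the pathway and its control, 18 were higher and 0 lower, with a median of 0.58. SUL2 stood at 62.6 and 65.7 CPM in the knockout, against 16.3 and 22.5 CPM in wild type (1.72 ± 0.15, adjusted p = 6.07e-06). SUL1 was at low level, with 6.63 and 7.40 CPM in the knockout, against 1.34 and 1.24 CPM in wild type (2.43 ± 0.39, adjusted p = 0.000559). Both permease genes were higher in each knockout library than in each wild type library.

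Along the reduction steps the rises were 0.79 ± 0.10 for MET3, 1.30 ± 0.11 for MET14, 0.91 ± 0.15 for MET16, 0.65 ± 0.10 for MET5 and 0.41 ± 0.11 for MET10. Of these 5 calls that of MET10 was lost without wild type replicate 2 or knockout replicate 1. MET17 stood at 764 and 675 CPM in the knockout, against 231 and 211 CPM in wild type (1.70 ± 0.08, adjusted p = 1.73e-08). The reading frame YLR302C overlaps its start. MET2 stood at 56.5 and 55.0 CPM in the knockout, against 12 and 10.1 CPM in wild type (2.33 ± 0.15, adjusted p = 4.49e-07). MET6 stood at 995 and 823 CPM in the knockout, against 500 and 478 CPM in wild type (0.90 ± 0.10, adjusted p = 3.06e-05). Past methionine, SAM2, for S-adenosylmethionine synthetase, was at 0.55 ± 0.12, CYS3, for cystathionine gamma-lyase, at 0.49 ± 0.08, and MUP1, for the methionine permease, at 0.47 ± 0.08. The SAM2 call was lost without knockout replicate 1. The regulators did not pass. MET4, for the activator, was at 0.06, CBF1 at 0.13, MET31 at 0.19, MET30 at 0.18, MET28 at 0.48 and MET32 at 0.70, the last with 34 and 57 counts in the knockout and 26 and 24 in wild type. MET32 passed as higher without knockout replicate 1.

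Promoters are shown for SUL2 and MET17, which hold the known core strings of the pathway's factors. CACGTG, the core bound by Cbf1, was in the window of 20 of 28 genes (71.4%) and 6.26% of all windows, and AACTGTGG, the core bound by Met31 and Met32, in 15 of 28 (53.6%) and 1.77%. SUL1, with the largest rise of the list (2.43), held neither string, and MET2 (2.33) held CACGTG only. Members that did not pass, such as MET4, MET8, CYS4 and CBF1, also held CACGTG. The first line for each gene has CACGTG in capitals and the second AACTGTGG or its reverse complement, and the stretches of a gene overlap.
SUL2, Cbf1 core (chrXII:323209-323268, plus strand): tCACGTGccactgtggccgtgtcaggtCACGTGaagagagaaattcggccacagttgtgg
SUL2, Met31 core (chrXII:323231-323290, plus strand): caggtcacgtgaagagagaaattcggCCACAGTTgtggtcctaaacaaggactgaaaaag
MET17, Cbf1 core (chrXII:732215-732274, plus strand): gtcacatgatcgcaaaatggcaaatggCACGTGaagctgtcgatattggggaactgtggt
MET17, Met31 core (chrXII:732240-732299, plus strand): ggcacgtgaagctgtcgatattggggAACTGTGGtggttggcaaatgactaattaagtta

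The phosphate regulon held PHO89, the gene with the largest fitted rise of the 5667 tested, and its members differed between the knockout replicates. When phosphate is short, the kinase Pho80-Pho85 is inhibited and the activator Pho4 turns on transporters, phosphatases and polyphosphate synthesis. Of 19 genes, 10 were higher and 1 lower, with a median of 0.40. PHO89, for the sodium-phosphate cotransporter, stood at 75.6 and 40.2 CPM in the knockout, against 2.01 and 2.06 CPM in wild type (4.81 ± 0.44, adjusted p = 7.39e-06). PHO5, for the secreted acid phosphatase, stood at 292 and 141 CPM in the knockout, against 45.9 and 64.6 CPM in wild type (1.96 ± 0.29, adjusted p = 0.000382). SPL2, for a regulator of low-affinity phosphate uptake, stood at 45.4 and 29.2 CPM in the knockout, against 7.14 and 11.1 CPM in wild type (2.02 ± 0.25, adjusted p = 0.000125). The groups did not overlap for these 3 genes, and in each knockout replicate 1 lay well above knockout replicate 2.

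PHO12 and PHO11, near-identical acid phosphatase genes that can share reads, rose by 2.67 ± 0.28 and 2.26 ± 0.33, and PHM6 rose by 1.94 ± 0.27. PHO8, for the vacuolar phosphatase, was at 0.90 ± 0.09. PHO84, for the main high-affinity transporter, stood at 1485 and 878 CPM in the knockout, against 706 and 724 CPM in wild type (0.72 ± 0.23, adjusted p = 0.0304), and its call was lost without knockout replicate 1 or either wild type library. In 17 of the 19 genes knockout replicate 1 exceeded knockout replicate 2, with a median difference of 0.41 on a scale of log2(CPM + 1), whereas wild type replicate 1 exceeded wild type replicate 2 in 5, with a median of -0.05. The higher count was 7 without replicate 1 of either genotype and 12 without knockout replicate 2. GIT1, for a glycerophosphoinositol transporter, was the member that fell (-1.41 ± 0.33, adjusted p = 0.0065), at 12 and 8 counts in the knockout and 23 and 25 in wild type, and it lost its call without knockout replicate 2. PHO4, PHO80 and PHO85 did not pass, at 0.05, -0.39 and 0.25. PHO80 passed as lower with a replicate block, without knockout replicate 2 and with the 4 libraries fitted alone, and PHO85 passed as higher in the last.

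The Pho4 core is the same string as the Cbf1 core, CACGTG, and 12 of the 19 genes (63.2%) held it, against 6.26% of all windows. PHO81, VTC1, VTC2 and VTC4 held it and did not pass, while PHO8 and PHO3 were higher without it. The PHO12 and PHO11 stretches below are identical although the genes lie on different chromosomes.
PHO89 (chrII:798813-798872, minus strand): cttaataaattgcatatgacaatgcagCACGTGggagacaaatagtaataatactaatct
PHO12 (chrVIII:551789-551848, plus strand): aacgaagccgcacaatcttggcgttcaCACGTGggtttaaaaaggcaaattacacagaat
PHO11 (chrI:225150-225209, plus strand): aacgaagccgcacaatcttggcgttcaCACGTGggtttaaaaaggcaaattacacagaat

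Some genes of iron uptake were higher. The factor Aft1 turns on siderophore uptake, reductive uptake and wall mannoproteins that hold siderophores when iron is low. Of 23 tested genes 9 were higher and 2 lower, with a median of 0.13, and the higher count was 5 without wild type replicate 2. The mannoprotein gene FIT2 stood at 86.0 and 124 CPM in the knockout, against 23.0 and 15.7 CPM in wild type (2.45 ± 0.26, adjusted p = 3.19e-05). FIT3, of the same family, stood at 200 and 217 CPM in the knockout, against 62.5 and 44.2 CPM in wild type (1.97 ± 0.15, adjusted p = 1.8e-06). FRE5, of the ferric reductase family, was at 1.39 ± 0.27, HMX1, for heme oxygenase, at 1.18 ± 0.22, and ARN2, for a siderophore transporter, at 0.53 ± 0.09. FIT2, FIT3 and FRE5 neighbour each other on chromosome XV, between 1059531 and 1063648. FET3 and FTR1, the oxidase and permease of reductive uptake, were lower by -0.33 ± 0.10 and -0.28 ± 0.09, and both calls were lost whichever single library was left out. AFT1 and AFT2 did not pass, at -0.08 and 0.07.

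The Aft1 core TGCACCC was in 18 of 23 windows (78.3%), against 2.39% of all windows. Every higher member held it, but so did FET3 and FTR1, which were lower, and FIT1, ARN1 and CCC2, which did not pass. The core is in capitals, as its reverse complement, in the stretches of the pair of FIT genes.
FIT2 (chrXV:1059373-1059432, plus strand): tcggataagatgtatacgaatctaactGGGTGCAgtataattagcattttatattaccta
FIT3 (chrXV:1061207-1061266, minus strand): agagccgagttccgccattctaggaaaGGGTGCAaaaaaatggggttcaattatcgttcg

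Pyrimidine synthesis held the largest fitted fall among the 5667 genes apart from RAD27 and YCL021W-A. URA1, for dihydroorotate dehydrogenase (chromosome XI, 25215 to 26159, plus strand), stood at 149 and 148 CPM in the knockout, against 1225 and 1277 CPM in wild type (-3.08 ± 0.07, adjusted p = 7.66e-12). URA4, for dihydroorotase, the step before, stood at 126 and 122 CPM in the knockout, against 320 and 340 CPM in wild type (-1.41 ± 0.08, adjusted p = 1.14e-07). URA2, for the first 2 activities of the pathway in 1 protein, stood at 1115 and 901 CPM in the knockout, against 1616 and 1627 CPM in wild type (-0.69 ± 0.09, adjusted p = 0.00018). The steps after URA1 did not follow. URA5, for orotate phosphoribosyltransferase, did not pass (-0.17), and URA3, for the last decarboxylation and also a marker gene, was higher as given above. Over the list 1 of 13 was higher and 4 lower, with a median of -0.16, the other lower gene being URK1 (-0.22), whose call was lost whichever single library was left out. PPR1, for the activator of the pathway, did not pass (-0.08).

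The Ppr1 string, TTCGG and CCGAA with any 6 letters between them, was in the window of 1 of 13 genes and in 0.0362% of all windows. That gene was URA1, and the string is in capitals in its stretch.
URA1 (chrXI:25010-25069, plus strand): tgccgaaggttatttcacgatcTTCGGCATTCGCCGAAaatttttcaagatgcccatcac

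Other single-gene falls stood out within otherwise mixed pathways. RIB4, for lumazine synthase of riboflavin synthesis, stood at 79.5 and 79.9 CPM in the knockout, against 283 and 307 CPM in wild type (-1.89 ± 0.07, adjusted p = 3.85e-09), while 2 of the 8 genes of that pathway were higher, RIB5 at 0.45 and RIB3 at 0.27. RIB5 lost its call without wild type replicate 2, and RIB3 without knockout replicate 1 or either wild type library. MDH2, for the cytosolic malate dehydrogenase of gluconeogenesis, stood at 47.4 and 52.6 CPM in the knockout, against 339 and 365 CPM in wild type (-2.82 ± 0.19, adjusted p = 5.48e-07). Its pathway had 0 of 15 higher and 2 lower, with a median of -0.06 and 1 lower with any 1 library left out. PCK1, for the first committed enzyme, was at 6.82 and 7.02 CPM in the knockout, against 6.91 and 6.60 CPM in wild type. Purine synthesis had 2 of 15 higher and 3 lower, shares of 13.3% and 20%, with a median of -0.13. Without knockout replicate 1 the purine list had 5 lower and 1 higher, and without knockout replicate 2 it had 1 lower.

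Synthesis of branched-chain amino acids rose broadly, with 10 of 12 genes higher and 0 lower and a median of 0.40. BAT1, for the mitochondrial transaminase, stood at 1923 and 1767 CPM in the knockout, against 851 and 823 CPM in wild type (1.14 ± 0.07, adjusted p = 2.94e-07). LEU1, for isopropylmalate isomerase, stood at 2002 and 1578 CPM in the knockout, against 1164 and 1038 CPM in wild type (0.70 ± 0.10, adjusted p = 0.000331). BAT2 was at 0.72 ± 0.10 and ILV3, for dihydroxyacid dehydratase, at 0.59 ± 0.08. LEU2, described above, is also counted here, and LEU3, for the pathway's factor, did not pass (-0.20). Arginine metabolism had 6 of 13 higher and 0 lower, with a median of 0.29. CAR2, for an enzyme of arginine breakdown, stood at 267 and 237 CPM in the knockout, against 99.9 and 114 CPM in wild type (1.24 ± 0.09, adjusted p = 1.8e-06), and ARG1, of arginine synthesis, was at 1.13 ± 0.16. So genes of synthesis and of breakdown both rose. GCN4, for the general activator of amino acid synthesis, was lower in RNA, at 992 and 939 CPM in the knockout and 1354 and 1415 CPM in wild type (-0.52 ± 0.07, adjusted p = 0.000182). Gcn4 is controlled mostly at translation, which RNA levels do not show. Its string TGACTCA was in 8 of 12 windows of the branched-chain genes (66.7%) and 10 of 13 of the arginine genes (76.9%), against 4.23% of all windows. Lysine synthesis had 3 of 10 higher and 1 lower, and histidine synthesis 1 of 7 tested higher and 1 lower, GCN4 being the lower one. The histidine rise, of HIS4, was lost without wild type replicate 2 or knockout replicate 1, and the lysine list had 0 lower without wild type replicate 1 or knockout replicate 2.

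Most proteasome genes were higher by small amounts. Of 35 genes, which encode the core particle, the regulatory particle, the chaperone Ump1 and the activator Rpn4, 27 were higher and 0 lower, with values from -0.08 to 0.59 and a median of 0.33. PUP3, for a core beta subunit, stood at 260 and 268 CPM in the knockout, against 178 and 174 CPM in wild type (0.59 ± 0.06, adjusted p = 3.63e-05). PRE2, for the chymotrypsin-like core subunit, stood at 377 and 395 CPM in the knockout, against 269 and 269 CPM in wild type (0.52 ± 0.06, adjusted p = 8.3e-05). UMP1, for the assembly chaperone, was at 0.57 ± 0.10, and of the regulatory particle RPN10, for a ubiquitin receptor, was at 0.47 and RPT1, for an ATPase, at 0.43. RPN1 and RPN3, also of the regulatory particle, did not pass, at 0.03 and -0.08, and neither did RPN4 (0.18). The higher count lay between 19 and 26 with any 1 library left out.

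Rpn4 binds the string GGTGGCAAA, which was in 27 of 35 proteasome windows (77.1%) and in 1.72% of all windows. These 27 are not the same genes as the 27 called higher. UMP1, PUP1, RPN10, PRE5, SEM1 and RPN13 were higher without the string, and PRE1, RPN1, RPN3, RPN5, RPN9 and RPN12 held it and did not pass. The string is in capitals, for PRE6 as its reverse complement, in stretches of core subunit genes that rose by 0.52 to 0.59.
PUP3 (chrV:349496-349555, minus strand): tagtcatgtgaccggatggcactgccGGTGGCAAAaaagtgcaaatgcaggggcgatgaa
PRE6 (chrXV:255202-255261, plus strand): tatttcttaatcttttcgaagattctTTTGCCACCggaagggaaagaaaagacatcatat
PRE2 (chrXVI:732168-732227, plus strand): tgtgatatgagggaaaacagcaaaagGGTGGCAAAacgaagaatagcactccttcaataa

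Heat shock chaperone genes had 15 of 29 higher and 2 lower at 30 °C, with a median of 0.26. SSA1, for a cytosolic Hsp70, stood at 972 and 952 CPM in the knockout, against 460 and 445 CPM in wild type (1.09 ± 0.09, adjusted p = 2.64e-06), and its close copy SSA2, with which it can share reads, did not pass (0.29) but passed with a replicate block, with library size alone as the scaling and with the 4 libraries fitted alone. HSP42, for a small heat shock protein, stood at 92.0 and 104 CPM in the knockout, against 43.9 and 48.9 CPM in wild type (1.08 ± 0.10, adjusted p = 6.78e-06). HSP82 and AHA1, for an Hsp90 and its activating co-chaperone, were at 0.96 ± 0.14 and 0.93 ± 0.10, and the mitochondrial chaperonin genes HSP60 and HSP10 both at 0.55 ± 0.09. MGE1 and FES1, for nucleotide exchange factors of Hsp70, were the lower ones (-0.32 and -0.27), and FES1 lost its call whichever single library was left out. HSF1, for the factor that drives these genes, was at 0.10 and did not pass. Its binding string, TTC, GAA and TTC each separated by any 2 letters, was in 13 of 29 windows (44.8%) and 1.48% of all windows. Folding factors of the endoplasmic reticulum had 3 of 14 higher and 2 lower, shares of 21.4% and 14.3% against 15% and 15.2% over all genes. PDI1, for protein disulfide isomerase, was at 0.57 ± 0.08 and IRE1, for the sensor of unfolded protein, at -0.42 ± 0.08.

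**Figure D4:**
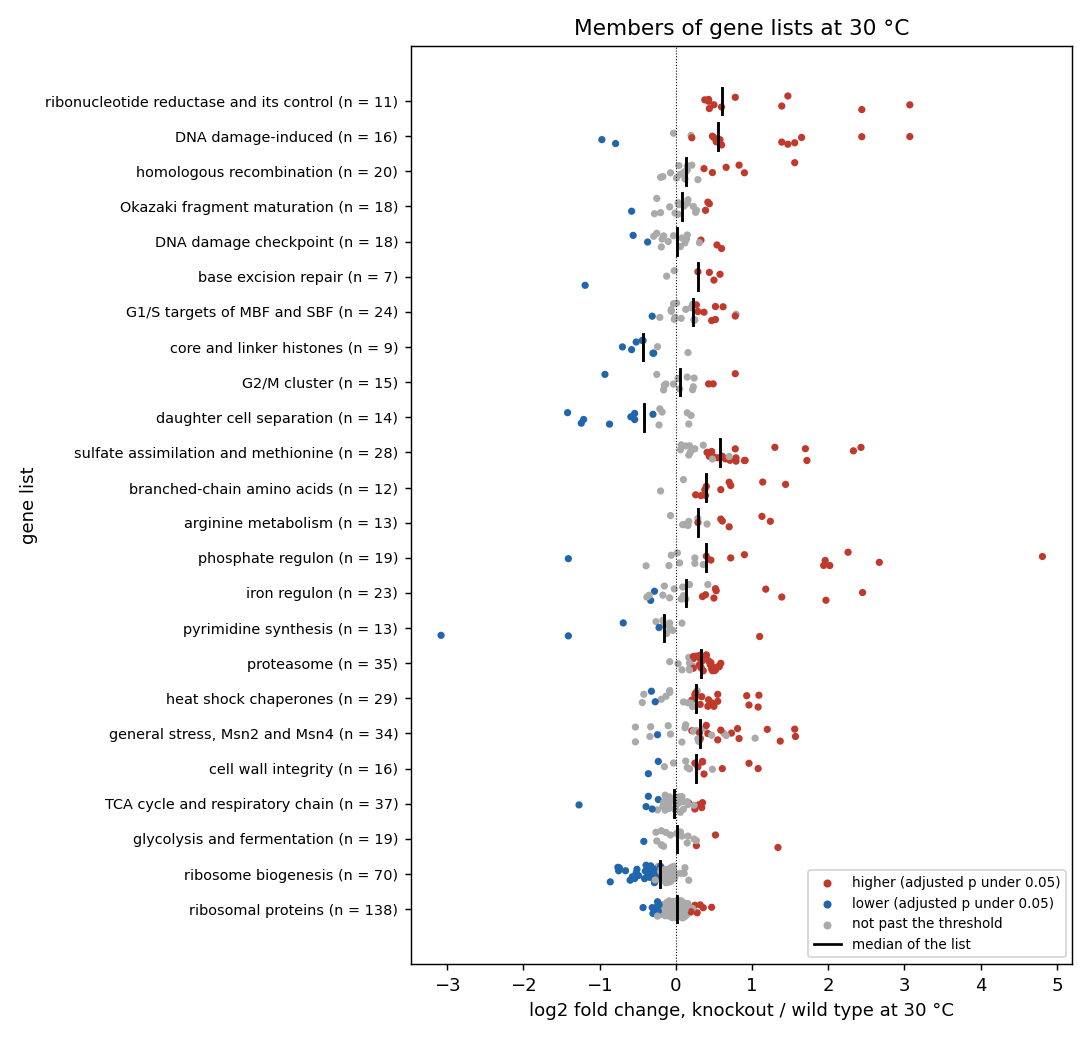
Log2 fold change of knockout over wild type at 30 °C (horizontal axis) for each tested member of 24 gene lists (rows), with called higher members in red, called lower members in blue, the rest in grey and each list's median as a black bar. The reductase list lies wholly right of 0 with a median of 0.60, the histone and daughter cell lists lie mostly left with medians of -0.43 and -0.42, and ribosomal proteins centre on 0.01.

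General stress genes driven by Msn2 and Msn4 had 14 of 34 higher and 1 lower, with a median of 0.32, and the higher count was 9 without wild type replicate 2 or without knockout replicate 2. The 3 largest rises among the called members were in glucose phosphorylation and the pentose phosphate pathway. GLK1, for glucokinase, stood at 341 and 364 CPM in the knockout, against 131 and 141 CPM in wild type (1.37 ± 0.11, adjusted p = 2.67e-06), with YCL042W overlapping it. HXK1, for hexokinase 1, stood at 180 and 205 CPM in the knockout, against 58.0 and 72.0 CPM in wild type (1.56 ± 0.30, adjusted p = 0.00173). GND2, for a minor 6-phosphogluconate dehydrogenase, was at 1.57 ± 0.17. HXK2, for the hexokinase of growth on high glucose, was lower (-0.42 ± 0.06, adjusted p = 0.000401). The classic stress markers HSP12 and CTT1 did not pass, at -0.53 and 0.27, although HSP12 passed as lower without knockout replicate 2 and with the 4 libraries fitted alone. In the same list MSN4 was at -0.10, and the call of MSN2 (-0.24) was lost whichever single library was left out. Among sugar transporters 2 of 11 were higher and 3 lower, with 1 higher when any 1 library was left out. HXT7, for a high-affinity carrier near-identical to HXT6, was at 1.45 ± 0.26, and HXT3, for a low-affinity carrier, at -0.38 ± 0.07.

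Central carbon lists lay near the background. Glycolysis and fermentation had 3 of 19 higher and 1 lower, and the TCA cycle and respiratory chain 5 of 37 each way, with medians of 0.01 and -0.02. Without wild type replicate 1 the glycolysis list had 0 higher and the TCA and respiratory list 1. Without wild type replicate 2 the TCA and respiratory list had 1 lower, and without knockout replicate 1 it had 2 lower and the glycolysis list 1 higher and 4 lower. Without knockout replicate 2 the TCA and respiratory list had 3 higher. COX7, for a subunit of cytochrome oxidase, stood at 10.7 and 8.16 CPM in the knockout, against 22.8 and 22.9 CPM in wild type (-1.27 ± 0.19, adjusted p = 0.000332). IDH1 and IDH2, for the subunits of isocitrate dehydrogenase, were at 0.35 and 0.34, and IDH1 lost its call without wild type replicate 1. Ergosterol synthesis had 5 of 24 higher and 1 lower, shares of 20.8% and 4.17% against 15% and 15.2% over all genes. Fewer of its members were higher without replicate 1 of either genotype or without wild type replicate 2.

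Of 16 cell wall integrity genes 8 were higher and 2 lower, with a median of 0.27, and the higher count was 4 without wild type replicate 1. PRM5, a target of the factor Rlm1, stood at 65.1 and 72.3 CPM in the knockout, against 32.3 and 32.6 CPM in wild type (1.08 ± 0.10, adjusted p = 1.1e-05). CWP1, for a mannoprotein, was at 0.96 ± 0.11 and GSC2, for the stress-induced glucan synthase, at 0.61 ± 0.09, while PIR1, for a wall protein, was lower (-0.36 ± 0.07). Targets of the drug resistance factor Pdr1 had 4 of 10 higher and 1 lower. TPO1, for a polyamine exporter, was at 0.90 ± 0.08 and PDR5, for the main drug efflux pump, at 0.61 ± 0.07, whereas PDR1 was at 0.01. The 1 lower call of that list was lost with any 1 library left out. Antioxidant genes controlled by Yap1 had 6 of 17 higher and 3 lower, and 1 lower with either wild type library left out. OYE2, for an NADPH dehydrogenase, was at 0.55 ± 0.08, AHP1, for a peroxiredoxin, at 0.53 ± 0.07 and GPX2, for a glutathione peroxidase, at -0.60 ± 0.11.

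Ribosome assembly and ribosomal proteins parted. Ribosome biogenesis genes, whose products process ribosomal RNA, had 0 of 70 higher and 32 lower, with a median of -0.21. CIC1 stood at 133 and 155 CPM in the knockout, against 266 and 259 CPM in wild type (-0.86 ± 0.09, adjusted p = 2.56e-05). BRX1 stood at 182 and 187 CPM in the knockout, against 317 and 307 CPM in wild type (-0.76 ± 0.07, adjusted p = 9.14e-06). UTP20 and NOC2 followed at -0.75 ± 0.08 and -0.74 ± 0.07. The lower count lay between 22 and 29 with any 1 library left out. Of 138 ribosomal protein genes, many of them near-identical pairs, 6 were higher and 8 lower, shares of 4.35% and 5.8%, with a median of 0.01. The higher count was 3 without wild type replicate 1. The lower count was 1 without wild type replicate 2, 3 without knockout replicate 2 and 4 without wild type replicate 1. Knockout replicate 1 exceeded replicate 2 in 112 of the 138 genes, while wild type replicate 1 exceeded replicate 2 in 4, with median differences of 0.09 and -0.10 on a scale of log2(CPM + 1). The PAC core GATGAG was in 65 of 70 windows of the biogenesis genes (92.9%) and in 28.2% of all windows.

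Several genes with large changes lay in none of the lists. CSS1 stood at 39.8 and 35.5 CPM in the knockout, against 11.8 and 7.84 CPM in wild type (1.94 ± 0.19, adjusted p = 1.36e-05). WSC4, of the WSC family of cell wall stress sensors, stood at 37.2 and 26.0 CPM in the knockout, against 96.1 and 112 CPM in wild type (-1.72 ± 0.17, adjusted p = 1.34e-05). TPO2, for a polyamine exporter near-identical to TPO3, stood at 106 and 94.5 CPM in the knockout, against 280 and 291 CPM in wild type (-1.51 ± 0.10, adjusted p = 4.62e-07). The rule that chose these genes required both knockout libraries to lie on 1 side of both wild type libraries. Other falls were of similar size. LSM2, for a protein of the Lsm rings that bind U-rich RNA ends, was at -1.58 ± 0.15, PMP2, for a regulator of the plasma membrane proton pump, at -1.55 ± 0.14, and ATP20, for a subunit of the mitochondrial ATP synthase, at -1.39 ± 0.14. FMP48 was at -1.55 ± 0.21, and YLR460C at -1.39 ± 0.30, the last losing its call without wild type replicate 1 or knockout replicate 2. Among called genes with a mean of 10 CPM or more and no overlap between genotypes, PLM2 was last of the 15 largest rises at 1.65 and GND2 next at 1.57. YLR460C was last of the 15 largest falls and AAD3 next at -1.33. SUL1 (2.43) and EMA35 (-2.11), with means under 10 CPM, are not among these 30.

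By chromosome, the median change lay between -0.04 and 0.06 for 15 of the nuclear chromosomes and at 0.14 for chromosome I. On chromosome I, 22 of 81 tested genes were higher (27.2%) and 5 lower (6.17%), against 15% and 15.2% over all. Taken 1 library at a time, the median difference from the wild type mean on chromosome I was 0.14 in knockout replicate 1 and 0.10 in knockout replicate 2, on a scale of log2(CPM + 1), and between the wild type replicates it was 0.01. In the separate libraries at 37 °C the median change of chromosome I was 0.17, and that of chromosome IX, at -0.00 at 30 °C, was 0.14. At 30 °C chromosome VI came next after chromosome I at 0.06, with 24 of 110 genes higher and 11 lower. Copy number was not tested.

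**Figure D5:**
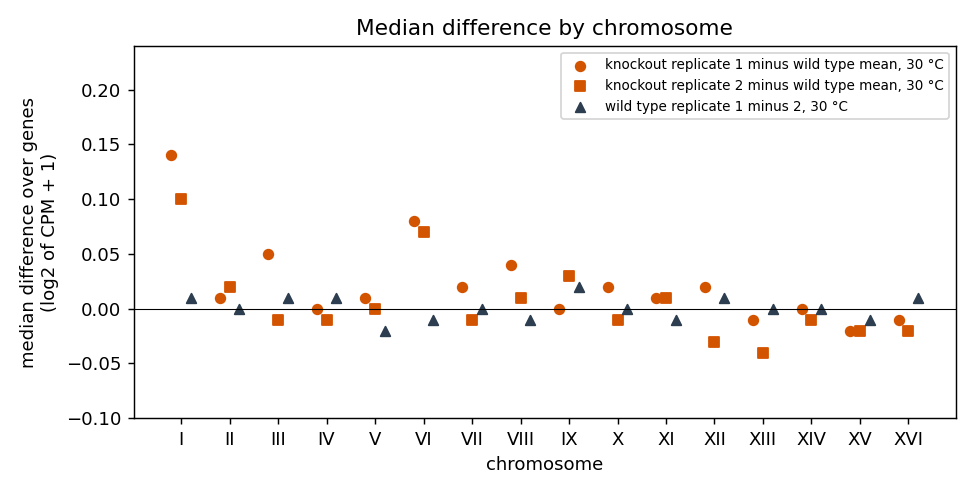
Median over the tested genes of each nuclear chromosome of the difference from the wild type mean in knockout replicate 1 (circles) and knockout replicate 2 (squares), and of wild type replicate 1 minus wild type replicate 2 (triangles), at 30 °C (vertical axis, log2 of CPM + 1). Chromosome I stands highest in both knockout libraries, at 0.14 and 0.10, with the wild type replicates 0.01 apart.

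Among tested genes in chromosome order, with untested genes passed over, there were 9 runs of 4 genes called in 1 direction. How many such runs the shares of called genes alone would give was not tested. The runs nearest a chromosome end and that on mitochondrial DNA are described here, chosen after the values were seen. At the left end of chromosome VIII, YHL050C, COS8, ARN2 and DFP4 (445 to 14272) were higher, at 1.53, 1.23, 0.53 and 0.87, and YHL050C has near-identical copies with which it can share reads. At the right end of chromosome III, GIT1, YCR099C, EMA35 and YCR101C (297049 to 303030) were all lower, at -1.41, -1.81, -2.11 and -1.43. EMA35 had 9 and 15 counts in the knockout, against 44 and 50 in wild type (-2.11 ± 0.29, adjusted p = 0.000214), and it overlaps YCR099C. Next to YCR101C, YCR102C did not pass (-0.82). Farther out RDS1, for a zinc cluster factor, stood at 7.41 and 11.2 CPM in the knockout, against 24.1 and 20.4 CPM in wild type (-1.25 ± 0.23), and AAD3, for a putative aryl-alcohol dehydrogenase, at 8.38 and 9.30 CPM, against 24.1 and 20.4 CPM (-1.33 ± 0.21). YCR101C lost its call without wild type replicate 2 or knockout replicate 2. On mitochondrial DNA 4 of 4 tested genes were lower, COX1 at -1.51 and the intron reading frames AI1, AI2 and AI5_BETA within it at -1.48, -1.77 and -1.63. AI1 and AI2 overlap each other and COX1, and AI5_BETA overlaps COX1. They hold few counts, 32 and 31 for AI2 in the knockout and 84 and 109 in wild type, and are not independent. The libraries were made with an mRNA kit, and how it recovered mitochondrial RNA was not tested. COX1 lost its call without wild type replicate 2 or knockout replicate 1, and AI1 also without wild type replicate 1.

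The genotype effect at 30 °C was set against that at 37 °C in 1 model. The difference between the effects passed for 1929 genes, 34% of those tested, with 948 higher at 37 °C (16.7%) and 981 lower (17.3%). Of the 849 genes higher at 30 °C, 125 had a significantly higher effect at 37 °C, 216 a lower one, and 508 no significant difference. Of the 862 genes lower at 30 °C, the effect at 37 °C was lower in 136 and higher in 192. The effect at 30 °C that chose these genes is also subtracted in the difference, so these counts are a description and are not to be set against the shares over all genes. The lists went different ways, with 11 of 16 damage-induced genes having a higher effect at 37 °C and 1 a lower one, whereas 16 of 28 sulfur genes, 14 of 19 phosphate genes and 18 of 35 proteasome genes had a lower effect there. Of the 34 general stress genes 30 had a higher effect at 37 °C. The knockout replicates at 37 °C were the least alike of any group, with a chi-square per degree of freedom of 8.69.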

How the data were processed

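The data are raw read counts per gene in 8 libraries, as deposited. The authors aligned with STAR and counted with HTSeq, with builds R64 and sacCer3, per the submitters' processing notes. RNA was extracted with Trizol and libraries were made with an mRNA kit, per the labels' protocols. Tool versions, strand use and multi-mapping reads are not described there, so overlapping genes and near-identical copies (found with blastn 2.17.0, 95% identity or more over 50% or more of the length) are named as uncertain. The R64 annotation matched 6008 systematic names, and the 684 without a match carried 0.164% of counts.

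The test was edgeR 4.0.16 in R 4.3.3, with TMM scaling, filterByExpr (10 counts, total of 15), the quasi-likelihood F test and Benjamini-Hochberg adjustment over 5667 genes. It was also run on simulated counts, drawn from wild type means with 1 spread for all genes and groups. The real groups differ in spread, with a chi-square per degree of freedom from 1.85 to 8.69. That run therefore does not give the error rate in these data. All 8 libraries were fitted with 1 coefficient per group and no block, so the 4 groups share 1 estimate of spread per gene, with 4 residual degrees of freedom, a median prior of 8.94 and a biological coefficient of variation of 6.19%. SE is the absolute log2 fold change divided by √F. The difference between temperatures is the interaction contrast of the same fit.

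Members, gene lists and tests were chosen with earlier results of these data known, and lists are described by counts and medians with no test of the list. Genes were named by these rules: RAD27 with the 2 genes on each side; the 15 largest called rises and falls with a mean of 10 CPM or more and no overlap between genotypes; up to 5 called members of each list and its regulators; a set of replication and reductase genes; genes at 0 in 1 genotype; and marker genes. Further members following a pathway's order, mating type genes and genes in runs along a chromosome were added after their values were seen. Strings were searched in the 500 bases upstream of start codons (RefSeq R64, 5528 windows). Alternatives were other scalings and filters, the 4 libraries alone, a replicate block, DESeq2 1.42.0, limma-voom (limma 3.58.1) and each library left out. Figures used matplotlib 3.10.9, pandas 2.3.3 and Python 3.11.15. Genome sequencing named in the design text was not used here. Some results are not reported here.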

Additional observations from a re-analysis of the deposited data

Results flagged for a closer look

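For 24 of the 30 genes with the largest called changes at 30 °C, among those with a mean of 10 CPM or more and no overlap between genotypes, the genotype effect differed between temperatures in edgeR's interaction test at an adjusted p under 0.05. These genes were chosen for their effect at 30 °C, which is also subtracted in that difference, so their number is a description. The 30 include RAD27 and YCL021W-A, which had 0 counts in every knockout library at both temperatures. For these genes the difference could not be resolved (SE of 340.96 and 274.48). Values are the effect at 37 °C minus that at 30 °C on the log2 scale. Among the rises at 30 °C, the difference was positive for the damage genes HUG1 (1.33), RNR3 (1.74) and PLM2 (1.37). It was negative for PHO89 (-5.56), PHO12 (-3.91), SPL2 (-2.98), PHO11 (-2.64), PHM6 (-2.03), PHO5 (-2.01), MET17 (-1.95), MET2 (-1.84) and FIT2 (-1.53). At 37 °C PHO89 stood at 8.97 and 17.4 CPM in the knockout, against 25.8 and 18.9 CPM in wild type, the opposite order to that at 30 °C. RNR3 reached 273 and 310 CPM in the knockout at 37 °C, against 15.3 and 17.0 CPM in wild type.

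Among the falls at 30 °C, the difference was negative for DSE1 (-0.92), with a fall that was deeper at 37 °C. It was positive for FMP48 (3.13), TPO2 (3.02), MDH2 (1.95), AI2 (1.91), WSC4 (1.90), ATP20 (1.56), URA1 (1.07), RIB4 (0.95), LSM2 (0.69), PMP2 (0.62) and URA4 (0.47). TPO2 stood at 556 and 459 CPM in the knockout at 37 °C, against 171 and 186 CPM in wild type. URA1 stood at 128 and 121 CPM in the knockout at 37 °C, against 499 and 502 CPM in wild type, so the knockout levels at both temperatures were close and those of wild type were not.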

How the results depend on the processing

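With any 1 library left out, the higher genes numbered 504 to 596 and the lower genes 494 to 585, against 849 and 862, and genes changed at least 2-fold numbered 141 to 144 against 164. The difference between temperatures passed in 1384 to 1747 genes against 1929. DESeq2 gave 555 higher and 520 lower. The 4 libraries at 30 °C alone gave 1026 higher and 1001 lower. Library size alone as the scaling gave 853 and 761, and no setting moved the median of all genes by more than 0.01. Every alternative shared between 57.1% and 99.5% of the 1711 calls, all of these with the same sign. Deviations of same-numbered libraries correlated at 0.005 between the 2 genotypes at 30 °C and at -0.111 to 0.114 over the 6 pairs of groups, so the numbers were not taken as a pairing. A replicate block gave 881 higher and 901 lower, and 166 changed at least 2-fold. Of 233 named genes past the threshold, 159 stayed past it in every alternative that tested them, 74 were lost in at least 1, and 0 reversed. A group left with 1 library is assumed to vary like the others. With 2 libraries a group, small changes of genes with few counts were not resolved.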
